A study of Mus musculus with 4 samples.

Results

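The cytosolic ribosomal protein genes were measured in stomach RNA from males of 2 mouse strains, 1 RNA pool per array. Members were the probes with exactly 1 gene symbol of the Rpl or Rps series, with Rplp0, Rplp1, Rplp2 and Rpsa, and without the S6 kinases. Of 33012 probes on the array, 72 matched this rule, for 62 genes, and 67 of them, for 59 genes, had a value on all 4 arrays. These 67 probes are the members described here, out of 13475 probes that had a value on every array. They comprise 42 probes of the large (60S) subunit, 19 of the small (40S) subunit, 5 of paralogs of subunit proteins and 1 of Rps19bp1, which encodes a protein that binds Rps19 and is not itself part of the ribosome.

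The first strain was B6.CAST-17, homozygous congenic mice that by their name carry CAST sequence of chromosome 17 on a B6 background. The other was wild-type C57BL/6J. Each strain gave 2 pools, each of RNA from 3 males, so the 4 arrays stand for 6 animals per strain and the p-values below measure the spread between pools, not between single mice. Both strains were fed chow and had gone 4 h without food when killed. Labels give no age. Each level is a log2 signal, and each difference is the congenic mean less the wild-type mean of those signals, ± SE from limma, with n = 2 pools per strain. The number of arrays limits their precision.

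Cytosolic ribosomes are built from a large subunit, which joins amino acids, and a small subunit, which reads the messenger RNA. Their protein genes are scattered over the chromosomes and are needed in near equal amounts by every cell, and their transcripts are among the most abundant of most tissues. Many of these messages start with a run of pyrimidines, the 5′ terminal oligopyrimidine (TOP) tract, through which the growth regulator mTOR controls their translation. In the stomach, cells that secrete digestive enzymes, mucus and hormones depend on a high rate of protein synthesis.

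No ribosomal protein probe passed an adjusted p of 0.05 in limma between the strains. The count was 0 of 67, against 64 of 13475 probes, or 0.475%. The smallest adjusted p among the members was 0.1123, for Rps28. At an unadjusted p under 0.05 there were 12 members, all lower in the congenic pools. That is 17.9% of the members, beside 15.8% of all probes in either direction and 8.66% of all probes in the lower direction. Off chromosome 17 there were 8 among 61 members (13.1%). The intervals were narrow for most members. For 62 of the 67 probes, the 95% interval of the difference lay inside a 1.5-fold change in either direction, and the median half-width was 0.20 log2, or 1.15-fold. Probes whose interval reached 1.5-fold were those of Rpl14 (1 of its 2 probes), Rps28, Rps18 and both probes of Rpl26.

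Small differences pointed downward more often than upward. The difference was negative for 46 members and positive for 21, where 50.4% of all probes were negative, and the median was -0.050, beside -0.0020 over all probes. Both congenic pools lay below both wild-type pools for 28 of 67 members (41.8%), against 26.1% of all probes. Both congenic pools lay above both wild-type pools for 12 members (17.9%), against 23.4% of all probes. For the remaining 27 members the pools overlapped. Most members are bright, and among the 47 with a mean signal of at least 18, 21 were lower (44.7%) and 5 higher (10.6%) without overlap, against 25.9% and 21.2% of the 433 probes that bright. Per array, the members' median deviation from their own 4-array mean was -0.0064 in congenic pool 1, -0.065 in congenic pool 2, 0.031 in wild-type pool 1 and 0.046 in wild-type pool 2. Congenic pool 2 lay farthest from the others on this measure. Without congenic pool 2 the median difference was -0.017 and without congenic pool 1 it was -0.10, so its size rests on which congenic pool is kept.

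**Figure D1:**
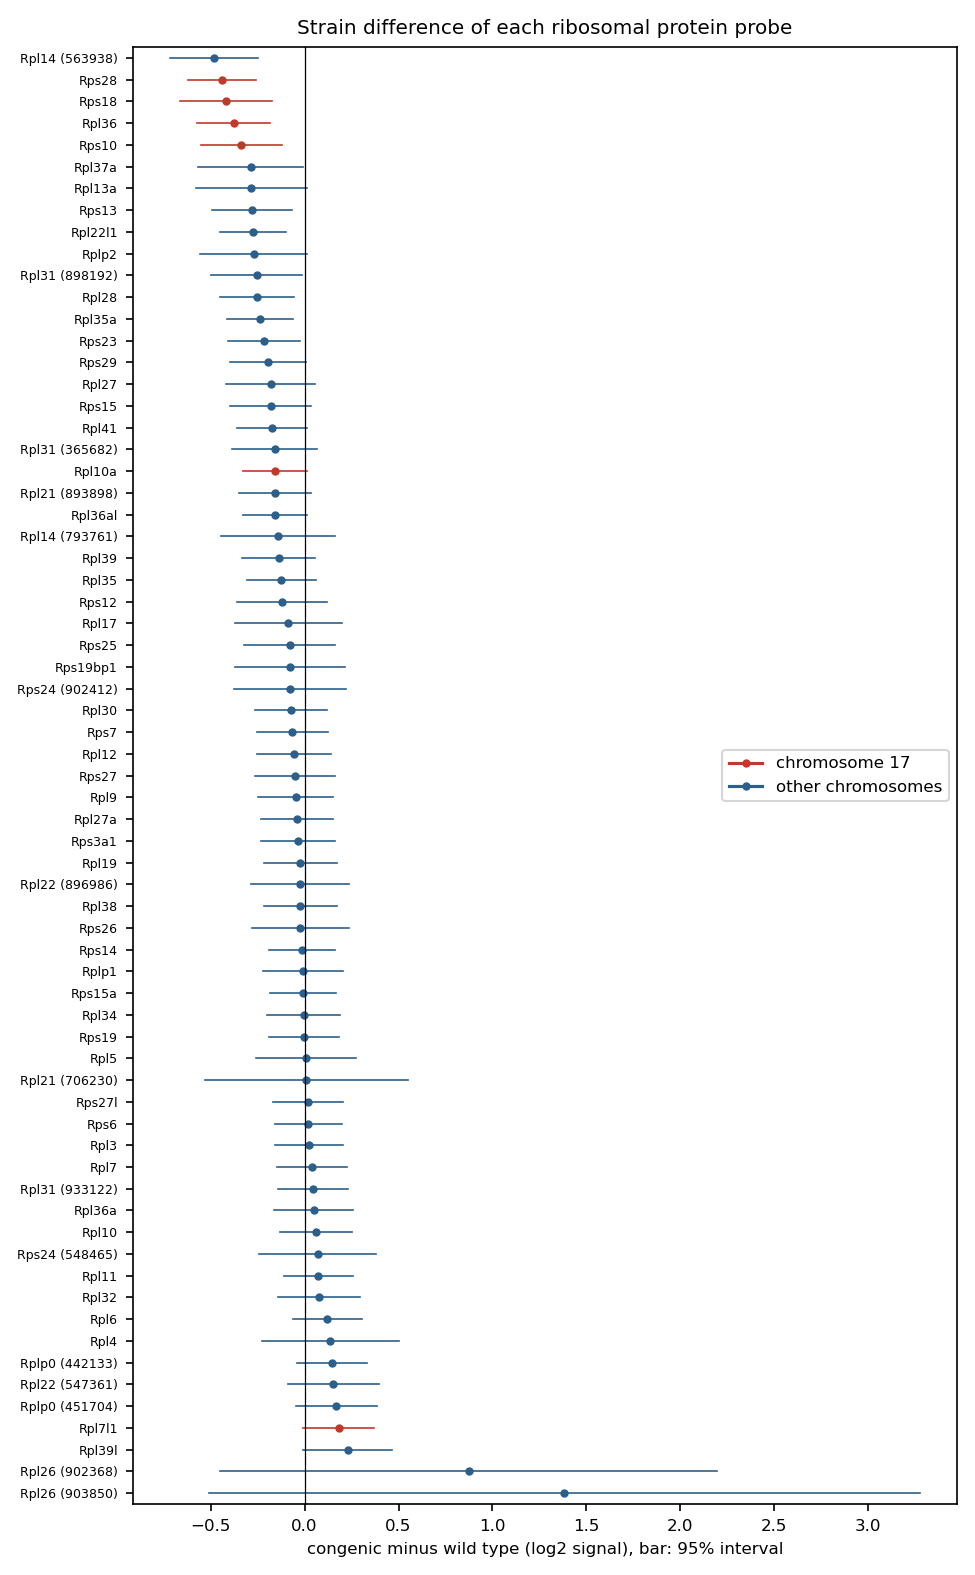
Difference between strains for each of the 67 ribosomal protein probes (x axis, congenic minus wild type, log2 signal; 1 row per probe, bars are 95% intervals from limma, n = 2 pools per strain). Red rows are genes of chromosome 17 and blue rows genes elsewhere, with the probe number where a gene has several probes. Most differences lie within 0.25 of 0 (53 of 67), 4 of the 5 most negative rows (at the top) are genes of chromosome 17, and the Rpl26 intervals are the widest.

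Chromosome 17, the chromosome named in the congenic strain, carries 6 of the members, and in none of them did the pools of the strains overlap. The 5 that encode subunit proteins were lower in the congenic pools, by 1.12-fold to 1.36-fold, and the paralog Rpl7l1 was higher by 1.13-fold. None of the 6 passed the adjusted threshold in limma (adjusted p between 0.1123 and 0.3364), and 4 had an unadjusted p under 0.05. Among all 383 named probes of chromosome 17, 5.22% passed, 34.5% had such a p, 37.1% had both congenic pools below both wild-type pools and the median difference was -0.041, while the median of the 5 subunit protein genes was -0.38. The probe sequences were not used here. Whether CAST and B6 sequence differ under the chromosome 17 probes was thus not examined. On that chromosome a difference in probe binding cannot be told apart from a difference in RNA level. Ribosomal protein genes have many near-identical processed copies in the genome, so the values are uncertain where a probe also reads such a copy.

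Rps28, a small-subunit protein that lies near the messenger RNA exit, read 18.35 and 18.33 in the congenic pools, against 18.81 and 18.75 in the wild-type pools. The pools of a strain lay within 0.062 of each other and the strains did not overlap, with a difference of -0.44 ± 0.073. Rps18, a protein of the small-subunit head, read 18.14 and 18.29 in the congenic pools, against 18.53 and 18.73 in the wild-type pools, a difference of -0.42 ± 0.0995 (limma adjusted p = 0.1821). Rps10, another small-subunit protein and one of the genes mutated in Diamond-Blackfan anaemia in humans, read 18.96 and 18.86 in the congenic pools, against 19.31 and 19.18 in the wild-type pools (-0.34 ± 0.088, limma adjusted p = 0.1928). In both genes the strains were separated by more than the gap between pools of 1 strain.

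Rpl36, a large-subunit protein, read 17.50 and 17.56 in the congenic pools, against 17.84 and 17.97 in the wild-type pools (-0.38 ± 0.079, limma adjusted p = 0.1675). Rpl10a, the large-subunit protein of the L1 stalk, which guides spent transfer RNA out of the ribosome, had the smallest difference of the 5, with 18.02 and 17.997 in the congenic pools, against 18.16 and 18.17 in the wild-type pools (-0.16 ± 0.069, limma adjusted p = 0.3364). Rpl7l1, a paralog of Rpl7, ran the other way, at 14.68 and 14.62 in the congenic pools, against 14.46 and 14.48 in the wild-type pools (0.18 ± 0.077, limma adjusted p = 0.3267). The pools of Rpl10a and Rpl7l1 were also separated without overlap. Each of the 6 differences kept its sign in all 12 fits run, but most of these fits could not have turned it. Leaving out a pool cannot turn a sign where the pools do not overlap. The block, the variance models, the filter and the allowed blank leave the difference itself unchanged. Rpl3l, a muscle paralog of Rpl3 and also a gene of chromosome 17, had no value on any array.

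**Figure D2:**
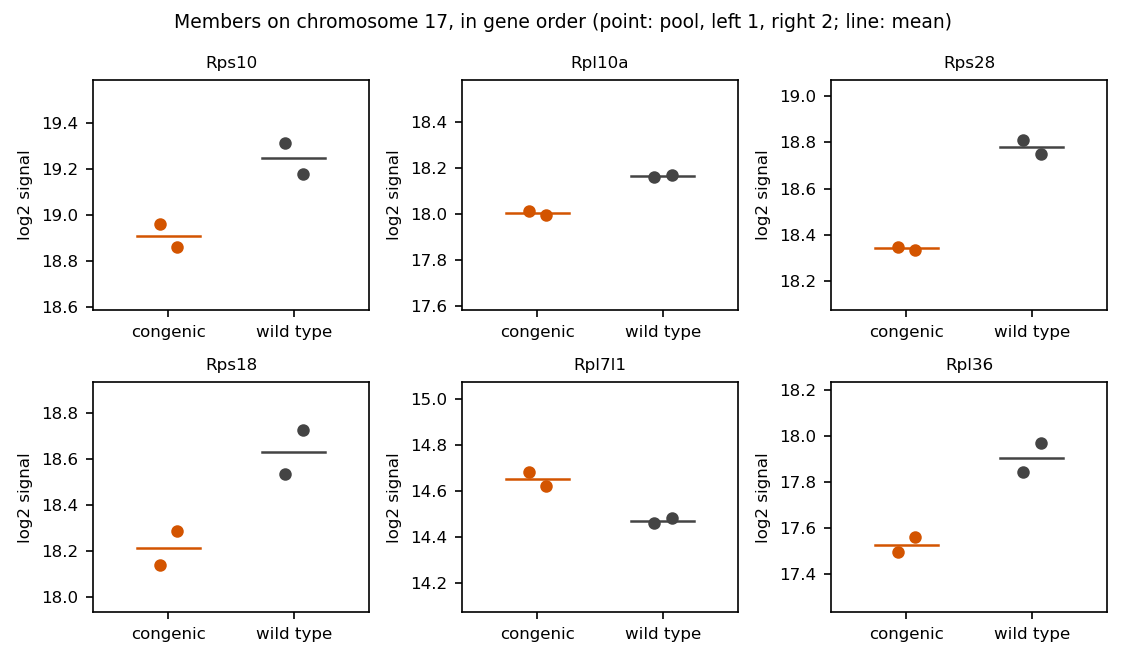
Log2 signal (y axis) of the 6 ribosomal protein genes of chromosome 17 in the congenic and wild-type pools; points are pools and lines are means of 2 pools. The congenic points lie below the wild-type points for Rps10, Rpl10a, Rps28, Rps18 and Rpl36, and above them for Rpl7l1.

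The 6 genes are spread along the chromosome. In the order of the 379 named genes measured there (order from RefSeq, GRCm38.p6), Rps10 and Rpl10a were at positions 119 and 125, Rps28 and Rps18 at 164 and 171, Rpl7l1 at 271 and Rpl36 at 308. Of the 20 nearest measured genes, 10 on each side, 8 had a negative difference around Rps10, 11 around Rpl10a, 15 around Rps28 and 14 around Rps18. Around Rpl7l1, which was itself higher, 15 of 20 neighbours had a negative difference, and around Rpl36 17 of 20 did. The median difference of the neighbours was 0.055 around Rps10 and -0.20 around Rpl36. Rps10 was thus lower among neighbours of mixed sign, and Rpl36 lower in a stretch where most genes were.

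**Figure D3:**
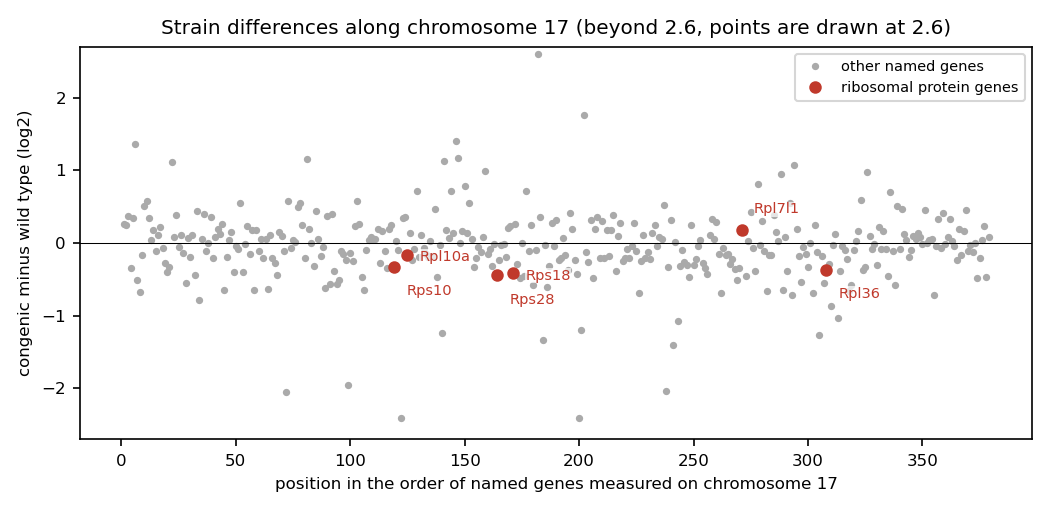
Difference between strains (y axis, congenic minus wild type, log2) of 379 named genes in their order along chromosome 17 (x axis). Red points are the 6 ribosomal protein genes and grey points the other genes; the 5 lower ribosomal protein genes lie between -0.16 and -0.44, inside the scatter of their neighbours.

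The starts of these genes differ in their pyrimidine content. RefSeq start windows were available for 52 of the 62 member genes (GRCm38.p6), and for the members the results turn on that have an entry, 15 bases before and 15 bases from the annotated start on are printed, with a run of at least 6 pyrimidines that begins with C in capitals. Rps10 lies at chr17:27635230-27635259 (minus strand), Rps18 at chr17:33955651-33955680 (minus), Rps28 at chr17:33824548-33824577 (minus), Rpl10a at chr17:28328456-28328485 (plus), Rpl7l1 at chr17:46782642-46782671 (minus), Rpl14 at chr9:120571502-120571531 (plus) and Rpl26 at chr11:68901551-68901580 (plus).
Rps10: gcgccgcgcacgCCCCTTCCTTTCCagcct
Rps18: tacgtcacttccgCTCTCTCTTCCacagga
Rps28: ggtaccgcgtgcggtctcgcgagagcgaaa
Rpl10a: gtggcgCCCCCCCagcggccgcaaactgca
Rpl7l1: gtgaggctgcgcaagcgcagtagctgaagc
Rpl14: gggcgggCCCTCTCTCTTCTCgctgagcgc
Rpl26: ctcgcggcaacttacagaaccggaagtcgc
The run was 13 bases long in Rps10, 11 in Rps18 and 14 in Rpl14, and no run of 6 lay in the window of Rps28, Rpl7l1 or Rpl26.

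Such a run, read on the transcribed strand within these 30 bases, was present in 26 of 45 genes of the 60S and 40S subunits (57.8%), against 25.5% of 27025 genes in the table. The annotated start can be some bases off, so the run is a description of the window and not a mapped TOP tract. The subunit genes with a run (30 probes) had a median difference of -0.098 and those without one (20 probes) of -0.029. Their ranges overlapped, from -0.48 to 0.14 with a run and from -0.44 to 1.38 without one. Both sets hold genes of chromosome 17, and the set without a run holds Rpl26. A link between the run and the difference was not tested. The letters CCGGAAG, a motif that ETS-family factors bind, occurred on either strand of the 300-base window in 21 of the 45 genes (46.7%), against 9.93% of all genes. A TATAAA occurred in 5 of the 45 (11.1%), against 15.7% of all genes.

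Off chromosome 17, the large-subunit probes had a median difference of -0.023 over 40 probes. Without overlap 14 were lower (35%, against 26.1% of all probes) and 9 higher (22.5%, against 23.4%). The farthest from 0 downward was Rpl14, a large-subunit protein, whose brighter probe read 17.12 and 17.34 in the congenic pools, against 17.68 and 17.75 in the wild-type pools (-0.48 ± 0.096, limma adjusted p = 0.1508). Its other probe read 12.40 and 12.22 in the congenic pools, against 12.48 and 12.43 in the wild-type pools (-0.14 ± 0.12). Both Rpl14 probes were lower without overlap, and the second one's interval included 0. Rpl37a read 18.89 and 19.16 in the congenic pools, against 19.25 and 19.38 in the wild-type pools (-0.29 ± 0.11), and Rpl13a, which also regulates translation in inflamed cells, 20.21 and 20.49 in the congenic pools, against 20.69 and 20.58 in the wild-type pools (-0.28 ± 0.12). In both, the gap between the congenic pools was about as wide as the difference between strains. Rpl28 (-0.25 ± 0.081) and Rpl35a (-0.24 ± 0.071), whose human counterpart is a Diamond-Blackfan anaemia gene, had an unadjusted p under 0.05, as did 1 probe of Rpl14, Rpl37a and 1 probe of Rpl31. These 5 are 12.5% of the 40 probes, against 15.8% of all probes.

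The proteins of the stalk, which recruits the elongation factors, did not share a direction. Rplp0, its base, was higher on both of its probes, at 17.97 and 18.06 in the congenic pools, against 17.83 and 17.90 in the wild-type pools on the first (0.15 ± 0.076), and at 14.95 and 14.78, against 14.71 and 14.69, on the second (0.17 ± 0.088). Rplp2 was lower without overlap, at 18.85 and 18.63 in the congenic pools, against 19.12 and 18.90 in the wild-type pools (-0.27 ± 0.12). Rplp1 overlapped (-0.0096 ± 0.087). No stalk probe passed in limma (adjusted p between 0.332 and 0.967). Rpl5 and Rpl11, which with the 5S RNA bind the p53 regulator Mdm2 when ribosome assembly fails, differed by 0.0082 ± 0.11 and 0.073 ± 0.075. Apart from Rpl26, the highest large-subunit probes without overlap were those of Rplp0, a probe of Rpl22 (0.15 ± 0.099) and Rpl6 (0.12 ± 0.075).

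Most small-subunit probes had a negative difference. Of 16 probes off chromosome 17, 14 had a negative difference, and the median was -0.058. Without overlap 7 were lower (43.8%, against 26.1% of all probes) and 1 was higher (6.25%, against 23.4%). Rps13 read 18.43 and 18.28 in the congenic pools, against 18.60 and 18.67 in the wild-type pools (-0.28 ± 0.086, limma adjusted p = 0.2395). Rps23, a protein of the decoding centre, read 18.76 and 18.73 in the congenic pools, against 18.91 and 19.01 in the wild-type pools (-0.22 ± 0.078). These were the only 2 of the 16 with an unadjusted p under 0.05 (12.5%, against 15.8% of all probes). Rps6, the substrate of the S6 kinases, differed by 0.020 ± 0.072, and Rps19, the gene most often mutated in human Diamond-Blackfan anaemia, by -0.0019 ± 0.076. Of the 15 measured genes of that disease (19 probes), none passed. These genes belong to both subunits, with Rps28 of chromosome 17 and Rpl26 among them. Without overlap 9 probes were lower (47.4%, against 26.1% of all probes) and 4 higher (21.1%, against 23.4%). Over all members these shares were 41.8% and 17.9%, so the set lay near its own family.

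Rpl26, a large-subunit protein at the exit of the nascent chain tunnel, was the member on which 1 array stood apart. Its first probe read 19.72 and 19.65 in the congenic pools, against 17.88 and 19.73 in the wild-type pools, and its second 18.16 and 18.23 in the congenic pools, against 15.49 and 18.14 in the wild-type pools. On both probes wild-type pool 1 was low, by 3.397-fold and 6.31-fold below the lowest of the other 3 arrays, while those 3 lay within 0.084 and 0.087 of one another. Over all arrays the differences were 0.87 ± 0.54 and 1.38 ± 0.77 (limma adjusted p = 0.4712 and 0.4344). Without wild-type pool 1 they were -0.050 and 0.053, and without wild-type pool 2 they were 1.80 and 2.71, both past the threshold (limma adjusted p = 0.000784 and 0.000147). That fit has 1 wild-type array, which is assumed to vary like the congenic pools, so its p-values carry no spread between wild-type pools. Wild-type pool 1 was over 1 log2 below each other array, with those within 0.5, on 74 of all probes (0.549%), and the Rpl26 probes were the only 2 members among them. Among all 13475 probes, the Rpl26 probes ranked 29 and 11 by how far wild-type pool 1 lay below the others.

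**Figure D4:**
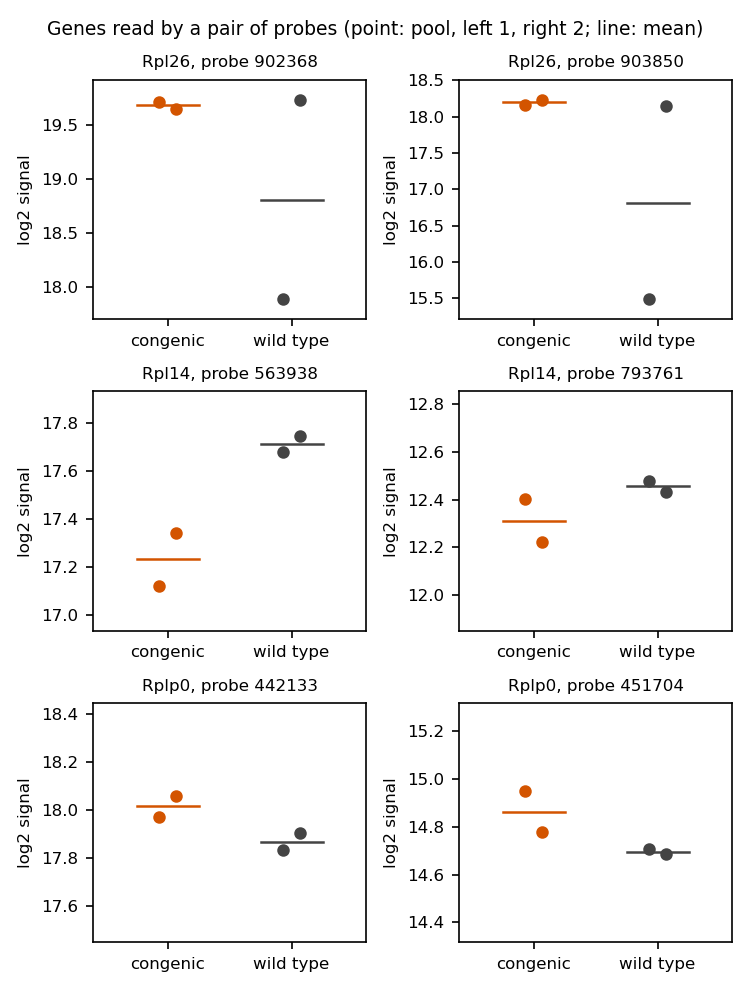
Log2 signal (y axis) in the congenic and wild-type pools for 3 genes with 2 probes each; points are pools, with pool 1 on the left, and lines are means. Both Rpl26 probes are low in wild-type pool 1 alone, both Rpl14 probes are lower in the congenic pools, and both Rplp0 probes are higher there.

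In all, 7 member genes had several compared probes, 15 probes together, and for 3 of them (Rpl14, Rpl26 and Rplp0) the probes shared a sign. Rpl31 had 3 probes, with differences of -0.25, -0.16 and 0.046. The probes of Rpl21, Rpl22 and Rps24 differed in sign by at most 0.18 log2. The dimmer Rpl21 probe, with 11.23 and 10.88 in the congenic pools and 10.89 and 11.21 in the wild-type pools, had the widest gap between congenic pools of all members (0.355), and after Rpl26 the wild-type pools lay farthest apart for Rpl4 (0.334), a large-subunit protein that differed by 0.14 ± 0.15. Gaps between pools were otherwise small: its absolute size had a median over the members of 0.076 for the congenic strain and 0.079 for wild type, against 0.133 over all probes in either strain. Bright probes have smaller gaps: among those with a mean of at least 18, the medians were 0.068 and 0.069 for the 47 members, against 0.084 and 0.096 for all 433 probes.

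The paralogs, copies that replace or accompany a subunit protein in some tissues, had no common direction. Rpl22l1, a paralog of Rpl22, read 17.64 and 17.71 in the congenic pools, against 17.97 and 17.93 in the wild-type pools (-0.27 ± 0.072, limma adjusted p = 0.1938). Rpl36al was lower as well (-0.16 ± 0.070), and Rpl39l, known from testis, was higher, at 13.56 and 13.57 in the congenic pools, against 13.27 and 13.40 in the wild-type pools (0.23 ± 0.096). Rps27l differed by 0.017 ± 0.076 and overlapped. Among probes with blanks, those of Rpsa, Rpl3l and a second Rpl34 probe had no value on any array, a second Rps15a probe had one in congenic pool 1 only (8.61) and the Rpl37 probe had one in wild-type pool 1 only (11.19). A blank was not read as absence.

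Other genes of translation were taken from lists. Fau, which encodes a small-subunit protein fused to a ubiquitin-like one and lies outside the naming rule, differed by -0.26 ± 0.086 (limma adjusted p = 0.2526). None of 35 genes in the list of initiation factors passed, with a median of 0.040. That list also holds regulators of initiation, the Eif2ak kinases and the Eif4ebp genes. The smallest p-values there belonged to Eif2s2 (-0.50 ± 0.085), a subunit of the factor that delivers the initiator transfer RNA, Eif3a (0.94 ± 0.16), the large scaffold of eIF3, and Eif5 (-0.27 ± 0.074). None of 10 elongation and termination factors passed (median -0.0027). None of 12 other genes with TOP messages, Fau among them, passed (median 0.013). Without overlap 3 were lower (25%, against 26.1% of all probes) and 1 was higher (8.33%, against 23.4%).

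Among 45 ribosome assembly factors, none passed and the median was 0.0076. Ncl, the nucleolar protein nucleolin, differed by 0.34 ± 0.077, Rrp12 by -0.46 ± 0.12 and Nhp2, of the snoRNA particles that modify ribosomal RNA, by -0.35 ± 0.094. None of 13 measured genes of RNA polymerase I, which transcribes ribosomal RNA, passed (median 0.048), nor did any of 13 genes of growth control (median -0.073). Tsc2, a brake on mTOR and a gene of chromosome 17, differed by -0.64 ± 0.22 (limma adjusted p = 0.2726). Larp7, a binding protein of the 7SK RNA, differed by 0.34 ± 0.082 (limma adjusted p = 0.1827) and Larp4b, an RNA-binding protein, by 0.50 ± 0.17 (limma adjusted p = 0.2662), so the 3 smallest p-values of that list did not share a direction. Without wild-type pool 2, and so again with 1 wild-type array and no spread between wild-type pools, 4 genes of these lists passed, all higher in the congenic pools: Eif3a, Eif1a, Ddx52 and Mxd4. In Eif1a, Ddx52 and Mxd4 wild-type pool 1 was the low array, as for Rpl26, with 11.56, 12.20 and 11.23, against 13.68, 14.00 and 12.71 in wild-type pool 2.

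Mitochondrial ribosomal proteins, which are nuclear-encoded and serve a separate ribosome, also had more negative than positive differences (40 of 58 genes). No gene passed in limma. At an unadjusted p under 0.05 there were 16 (27.6%, against 15.8% of all probes), of which 12 were lower. Without overlap 23 were lower (39.7%, against 26.1% of all probes) and 11 higher (19.0%, against 23.4%). The median was -0.062, and 6 of the 58 genes lie on chromosome 17. The smallest p belonged to Mrpl14, a gene of chromosome 17, at -0.47 ± 0.085 (limma adjusted p = 0.1275), followed by Mrps12 (-0.35 ± 0.076) and Mrpl53 (-0.30 ± 0.069).

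**Figure D5:**
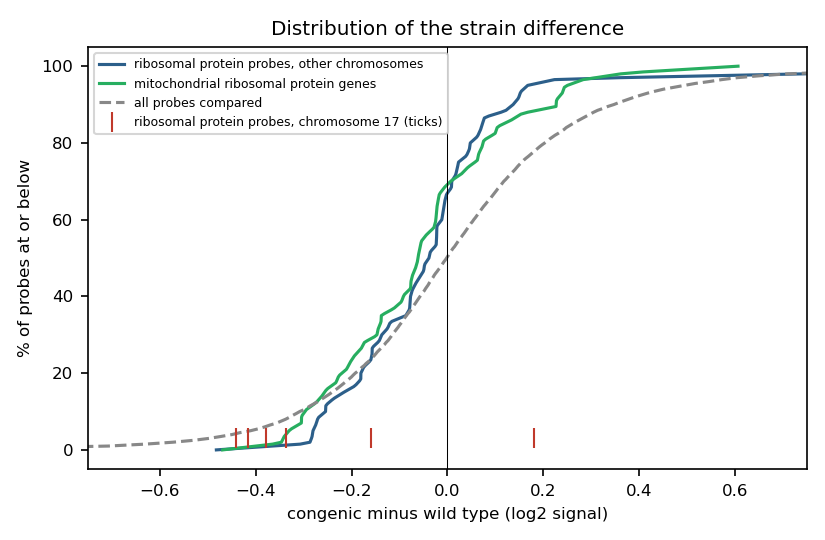
Share of probes (y axis, %) at or below a given difference between strains (x axis, congenic minus wild type, log2) for ribosomal protein probes off chromosome 17, mitochondrial ribosomal protein genes and all probes compared; red ticks are the 6 ribosomal protein probes of chromosome 17. The x axis is trimmed, which leaves out the Rpl26 probes. Of the cytosolic probes 41 of 61 lie below 0, and of the mitochondrial genes 40 of 58 do.

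Markers of the stomach and of other tissues were also read. All 9 stomach markers on the array had a value in every pool, and none passed. Of these, 3 were lower in the congenic pools without overlap and with an unadjusted p under 0.05. Gast, the hormone gastrin of G cells, differed by -0.59 ± 0.099 (limma adjusted p = 0.1130), Ghrl, the hormone ghrelin, by -0.43 ± 0.093 (limma adjusted p = 0.1713) and Atp4a, the proton pump of parietal cells, by -0.21 ± 0.079 (limma adjusted p = 0.2878). Cblif went the other way, higher without overlap (0.64 ± 0.33), but wild-type pool 1 was the low array, as for Rpl26. It read 20.20 and 20.24 in the congenic pools, against 19.02 and 20.14 in the wild-type pools. The other 5 markers overlapped. Of those, Atp4b differed by 0.041 ± 0.075, and the median of all 9 was -0.038. Of 14 measured exocrine pancreas genes, 10 rose in limma, by 1.66-fold (Prss3) to 9.40-fold (Cela2a). The log2 of the summed signal of all 14, in which Pla2g1b and Clps are the brightest and did not pass, was 21.38 and 21.35 in the congenic pools, against 20.98 and 21.0002 in the wild-type pools (Ctrl and Prss2 had blanks). All 8 measured genes of skeletal muscle had both congenic pools below both wild-type pools, and 3 of them passed in limma. Their summed signals were 16.30 and 16.34 in the congenic pools, against 17.31 and 17.38 in the wild-type pools (Atp2a1 and Pvalb had blanks). Of the B and plasma cell list only Cd5, which T cells also carry, and Jchain were measured on all arrays. Cd5 was lower (-1.25 ± 0.10, limma adjusted p = 0.00907), while Jchain was higher without overlap (0.12 ± 0.10) and did not pass. The summed signal of the 59 ribosomal protein genes was 24.78 and 24.76 in the congenic pools, against 24.85 and 24.87 in the wild-type pools. Whether these tissues and cell types had a part in the ribosomal protein differences was not tested, and in bulk RNA fewer cells of a type and less RNA per cell cannot be told apart.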

How the data were processed

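Total RNA was extracted with TRIzol, and 1 microgram was made into digoxigenin-labelled cRNA for chemiluminescent arrays, per the labels' protocols. The authors deposited 1 log2 signal per probe and array. No source used here states the normalization, the log base or the rule for blanks. The base was inferred from the range of the values, and every fold rests on it. Signal over background is unknown. The array medians over the 13475 compared probes lay between 12.819 and 12.824, so nothing was rescaled. Exact values recurred across arrays, such as 19.2483 for Rpl10 in wild-type pool 2 and for Rpl11 in congenic pool 2. With arrays already this alike, other scalings had little to change. The members' median difference was -0.051 with quantile normalization and -0.051 with median centring. Probes were named through the platform's annotation, and chromosomes, gene order and start windows came from RefSeq (GRCm38.p6).

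All 13475 probes were fitted together in R 4.3.3 by limma 3.58.1, using lmFit and a trended eBayes (residual degrees of freedom 2, prior 3.97). Tests were two-sided, and Benjamini-Hochberg adjustment ran over every probe. Dim probes were kept. The fit was tested on simulated data for this comparison and number of probes: among 100 probes changed by 1 log2 it found 47%, among 100 changed by 2 log2 it found 74%, and 2 of its 123 calls were false. Members and gene lists were chosen with earlier results of these data known, and no set was tested. In lists, a gene with several probes was read by the one with the highest mean. Named were the genes of chromosome 17, the 8 highest and 8 lowest members without overlap, those with the widest pool gaps, paralogs, genes with several probes and up to 3 genes per list by p. The remaining named members (for their role, or for a low unadjusted p), and the list genes that passed without wild-type pool 2, were picked with their values in view. The labels do not pair the pools of the strains, so the main fit used no pairing. The gaps between pools 1 and 2 of the strains had a Pearson's r of -0.064 over all probes and 0.11 over the members. Such values show no strong shared shift, but cannot tell whether pools were handled in pairs. Alternatives were the pool number as a block, other scalings and variance models, a filter on dim probes, each pool left out, and, chosen after seeing the data, 1 blank allowed per probe, 1 probe per gene and the members without Rpl26. Figures were drawn with matplotlib 3.10.9.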

Additional observations from a re-analysis of the deposited data

How the results depend on the processing

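The count of 0 ribosomal protein probes past the threshold held under every alternative run except without wild-type pool 2, where it was 2 (both Rpl26 probes, with the lone wild-type array assumed to vary like the congenic pools), so leaving out a pool gave between 0 and 2. At an adjusted p under 0.1 it was also 0. At an unadjusted p under 0.05 the count of 12 was 6 without the variance trend and between 7 and 13 when a pool was left out. The same count was 15 with the robust variance model. With the filter on dim probes it was 14 of 63 members, of which 1 was higher in the congenic pools. When a pool was left out, the members' median difference lay between -0.10 and -0.017, and that of the 5 chromosome 17 subunit genes between -0.41 and -0.32. With the pool number as a block, which the labels do not tie to a shared source, 35 of all probes passed in place of 64, and without the variance trend 20 did. Leaving out a pool gave between 15 and 168. The block changed no call among the members. The count of members lower without overlap lay between 29 and 42, and of those higher between 15 and 20, when a pool was left out, in part because fewer values are then compared. The translation lists had 0 genes past the threshold except without wild-type pool 2, so leaving out a pool gave between 0 and 4. Of the 67 members, 44 had the same sign in every fit and 23 did not, of which 1, the dim Rpl21 probe (-0.017 with quantile normalization), turned with all pools kept. Leaving out a pool cannot turn the sign of a member whose pools do not overlap. None was past the threshold where its sign turned. Among the members named in the text, the values with a pool left out ran between -0.050 and 1.80 for the first Rpl26 probe, -0.030 and 0.30 for Rpl4, -0.17 and 0.19 for the dim Rpl21 probe, -0.026 and 0.060 for Rps27l, -0.15 and 0.10 for the brighter Rpl22 probe, -0.22 and 0.065 for the brighter Rps24 probe, -0.13 and 0.14 for Rpl5, -0.063 and 0.043 for Rplp1, -0.038 and 0.034 for Rps19, and -0.019 and 0.060 for Rps6. Apart from Rpl26, the members whose sign turned differed by at most 0.14 with all pools. Where no pool was left out, the cause of a moved value was not tested. The arrays give no background signal, so what dim probes such as that of Rpl21 can show is limited.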
